A study of Mus musculus with 57 samples.

Results

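Congenital diaphragmatic hernia genes were examined in the developing respiratory and musculoskeletal tissues of wild-type (wt) and *Hoxa5*-/- mouse embryos. The 8 genes were taken by name from the tables, with earlier results of these data known: the zinc finger factors *Gata4* and *Gata6*, their cofactor *Zfpm2* (FOG2), the orphan nuclear receptors *Nr2f1* (COUP-TFI) and *Nr2f2* (COUP-TFII), the growth factor *Hgf*, its receptor *Met*, and the ciliary kinesin *Kif7*. All 8 were found among the 56860 genes of the tables. RNA was sequenced in bulk from 57 libraries in 7 contexts. Diaphragm, lung and trachea were taken at E15.5 and lung also at E12.5, with 4 wt and 4 *Hoxa5*-/- libraries in each. Somites were taken at E10.5 (4 wt, 3 *Hoxa5*-/-) and E12.5 (4 wt, 4 *Hoxa5*-/-), and brown fat from between the shoulder blades (iBAT) was taken at E18.5 (5 wt, 5 *Hoxa5*-/-). All embryos were on the 129/Sv background. The mutants were homozygous in every cell for a null allele that carries a *neomycin* cassette in the homeobox, and the controls carried no engineered allele. The somite samples were blocks of trunk between the C3 and T2 levels from which neural tube, forelimbs and thoracic organs had been taken away, so they hold more than somites.

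The genes fall into 4 roles in the making of the diaphragm. The pleuroperitoneal folds, transient sheets of mesenchyme, give rise to the connective tissue and central tendon, and muscle precursors that leave the cervical somites enter them. GATA4, GATA6, FOG2 and COUP-TFII act in the fold mesenchyme, where FOG2 binds GATA factors as a cofactor and also binds COUP-TFII. HGF is made by the connective tissue and is read by MET on the migrating muscle precursors. KIF7 sits at the tip of the primary cilium and tunes the GLI factors of the hedgehog pathway. Defects in most of these genes, or of their human counterparts, have been tied to hernia of the diaphragm. For *Nr2f1*, the paralogue of *Nr2f2*, no such tie or role is stated here. Several of the same genes act in the lung, which is small in that condition.

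RefSeq promoters (build GRCm38.p6, 250 bases before the start) were read for 5 of the 8 genes (*Nr2f1*, *Nr2f2*, *Hgf*, *Met* and *Kif7*), and none was used for *Gata4*, *Gata6* and *Zfpm2*. Those of *Nr2f1* and *Nr2f2* are shown because these paralogues had the lowest diaphragm ratios described below, and the upstream one of the *Hgf* pair because, beside *Nr2f2*, it alone held a searched motif. The motifs searched on both strands were AGATAA as well as AGATAG, then TGATAA as well as TGATAG, all of which GATA factors can bind, and the nuclear receptor sequence AGGTCA. Matches are in capitals (read as CTATCT where they lie on the opposite strand).
Nr2f1, chr13:78198874-78199123, minus strand: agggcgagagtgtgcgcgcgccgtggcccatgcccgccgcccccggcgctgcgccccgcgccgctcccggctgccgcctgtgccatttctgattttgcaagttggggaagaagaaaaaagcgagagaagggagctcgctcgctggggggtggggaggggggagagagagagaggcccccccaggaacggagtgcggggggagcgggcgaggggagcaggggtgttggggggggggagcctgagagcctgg
Nr2f1, chr13:78196450-78196699, minus strand: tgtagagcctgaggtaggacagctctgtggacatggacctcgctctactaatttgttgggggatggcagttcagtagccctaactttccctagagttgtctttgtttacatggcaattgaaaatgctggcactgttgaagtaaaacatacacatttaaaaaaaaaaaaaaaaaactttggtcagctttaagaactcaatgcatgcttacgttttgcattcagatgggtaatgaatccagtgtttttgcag
Nr2f2, chr7:70366747-70366996, minus strand: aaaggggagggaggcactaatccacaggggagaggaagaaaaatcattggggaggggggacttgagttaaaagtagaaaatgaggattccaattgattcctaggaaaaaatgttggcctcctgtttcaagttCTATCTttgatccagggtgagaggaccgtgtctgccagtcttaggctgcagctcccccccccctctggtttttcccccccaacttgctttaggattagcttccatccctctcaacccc
Hgf, chr5:16553245-16553494, plus strand: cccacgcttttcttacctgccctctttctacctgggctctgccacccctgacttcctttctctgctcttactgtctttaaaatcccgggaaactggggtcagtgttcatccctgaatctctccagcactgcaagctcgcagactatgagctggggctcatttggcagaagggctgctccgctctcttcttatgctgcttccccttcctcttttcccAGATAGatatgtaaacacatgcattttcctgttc

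The *Nr2f2* window held AGATAG on the opposite strand, 118 bases before the start, and the *Hgf* window held it on the gene's own strand, 34 bases before the start. The letters searched were not in the other 5 windows, which are both *Nr2f1* windows, the second *Hgf* window and those of *Met* and *Kif7*. Over all 32851 promoters of this length, 7.71% held AGATAG, 26.5% held any of the 4 GATA sequences and 14.02% held AGGTCA, so the matches are given as a description. Base composition differed between windows. G and C made up 72.0% of 1 *Nr2f1* window and 39.6% of the other, with the *Nr2f2* window (50%) between them.

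The libraries held between 18369905 and 72991481 reads assigned to genes. *Hoxa5* transcripts were lower in every *Hoxa5*-/- library than in every wt library of the same context, with log2 fold changes between −1.94 and −0.92. Markers fitted the labels: the 8 skeletal muscle markers summed to 11941 to 32100.5 TPM (transcript abundance scaled for gene length and library size) in diaphragm, and the 5 brown adipocyte markers to 13854 to 20447 TPM in iBAT. Diaphragm libraries also held RNA of neighbouring organs, since *Alb* ran from 184 to 5371 TPM, and the surfactant gene *Sftpc* stood at 322 TPM in wt diaphragm replicate 3 against at most 11.8 TPM in the other diaphragm libraries. Trachea libraries held cardiac muscle RNA (1617 to 5854 TPM over 8 markers).

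In diaphragm at E15.5, *Gata4* was the most abundant of the genes and *Hgf* the least. Mean wt levels, in TPM (a scale per length), were 71.7 ± 6.22 (SD, n = 4) for *Gata4*, 29.3 ± 2.30 for *Met*, 28.96 ± 4.03 for *Gata6* and 22.9 ± 5.23 for *Nr2f2*. They were 16.7 ± 2.12 for *Kif7*, 10.9 ± 1.18 for *Zfpm2*, 8.76 ± 1.09 for *Nr2f1* and 3.04 ± 0.822 for *Hgf*. The *Gata4* range did not touch that of any other of the genes, whereas the ranges of *Met*, *Gata6* and *Nr2f2* overlapped.

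None of the 8 genes passed the test between genotypes in diaphragm, where edgeR called 107 of 18019 genes (0.594%) when both limits were met (adjusted p below 0.05, change of 1.5-fold or more). DESeq2 called 0 of the 8 as well, and 3 of them (*Gata4*, *Nr2f1* and *Nr2f2*) had an unadjusted edgeR p under 0.05, as had 13% of all genes tested. The median log2 fold change (*Hoxa5*-/- over wt) was −0.04 over the 8 genes and 0.00 over all genes tested, with 3 of the 8 above 0. For 6 of the genes the 95% interval of the difference lay within 1.5-fold in both directions, so a difference of 1.5-fold or more lies outside their intervals. The exceptions were *Nr2f1* and *Nr2f2*.

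*Gata4* stood at 63.7, 78.6, 73.4 and 71.05 TPM in the wt diaphragm libraries and at 88.4, 98.1, 73.6 and 79.5 TPM in the *Hoxa5*-/- libraries. The mutant values lay toward the upper end, but replicates 3 of the mutant and 2 of the wt crossed. On the log2 scale the mutants were at 0.24 ± 0.08 (SE) relative to wt (adjusted p = 0.244). *Gata6* gave 30.8, 33.7, 26.6 and 24.8 TPM in wt and 25.9, 28.9, 23.8 and 25.9 TPM in mutants, and its log2 fold change was −0.16 ± 0.10 (adjusted p = 0.55). The mutant libraries lay inside or just under the wt range. *Zfpm2* gave 10.8, 12.3, 9.44 and 11.3 TPM in wt and 13.2, 13.6, 10.7 and 10.8 TPM in mutants, with overlapping groups and a log2 fold change of 0.13 ± 0.10 (adjusted p = 0.628). *Gata4* exceeded *Gata6* in each diaphragm library, with a log2 ratio of *Gata6* to *Gata4* of −1.31 ± 0.22 (SD, n = 4) in wt and −1.69 ± 0.08 in mutants.

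The nuclear receptors had the lowest ratios of the 8 genes in diaphragm. *Nr2f1* stood at 8.06, 9.78, 9.60 and 7.62 TPM in wt and at 5.998, 8.24, 5.99 and 6.33 TPM in mutants. Mutant replicates 1, 3 and 4 lay under every wt library, and mutant replicate 2 lay inside the wt range. The log2 fold change was −0.41 ± 0.12 (95% interval −0.68 to −0.14, adjusted p = 0.195). *Nr2f2* stood at 20.1, 22.7, 30.4 and 18.6 TPM in wt and at 17.3, 19.4, 17.96 and 16.1 TPM in mutants. Its highest library was wt replicate 3, the one with *Sftpc* at 322 TPM, and the groups met only through wt replicate 4 and mutant replicate 2. The log2 fold change was −0.38 ± 0.13 (95% interval −0.67 to −0.09, adjusted p = 0.247), and −0.23 when wt replicate 3 was left out (*Nr2f1* then gave −0.37).

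Both receptors are also transcribed in lung mesenchyme, whose 5 markers summed in the wt diaphragm libraries to 39.2, 70.4, 149 and 24.7 TPM and in the mutant libraries to 16.98 to 19.2 TPM. Every wt diaphragm library had a higher sum than every mutant library. The order of the wt libraries by this sum was also their order by *Nr2f2*, but not by *Nr2f1*, which was highest in wt replicate 2. Among the mutants the order was another, since replicate 2 had the lowest sum and the highest *Nr2f2*. The 5 neuron and glia markers summed to 34.2 to 68.6 TPM in wt and 15.9 to 18.2 TPM in mutants, again with no overlap, and those called lower included *Tubb3*, a neuronal tubulin, and *Sox10*, a glial factor. None of the markers of these sets was at 0 in all libraries of a genotype. *Myh11*, the smooth muscle myosin, ran from 39.1 to 156 TPM in wt diaphragm and from 2.81 to 5.43 TPM in mutants (log2 fold change −4.34, edgeR adjusted p = 0.00679). The sum of all 4 airway smooth muscle markers overlapped (1923 to 2998 and 1562 to 2363 TPM). *Myh11* is a small part of that sum, which includes *Des*, also among the skeletal muscle markers, so the overlap says little about smooth muscle here. *Barx1*, a factor of stomach mesenchyme, ran from 10.99 to 17.7 TPM in wt and from 4.595 to 6.36 TPM in mutants (−1.27, edgeR adjusted p = 0.0215). It also stood at 49.8 to 62.8 TPM in wt trachea. The 6 stomach and gut markers, of which only *Barx1* reached a mean of 1 TPM, summed to 11.2 to 17.97 TPM in wt and 5.28 to 6.67 TPM in mutants, with *Cdx1* and *Cdx2* at 0 in wt. The part of such tissue in the *Nr2f1* and *Nr2f2* values was not tested, and in bulk RNA fewer cells of a type and less RNA per cell cannot be told apart.

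**Figure D1:**
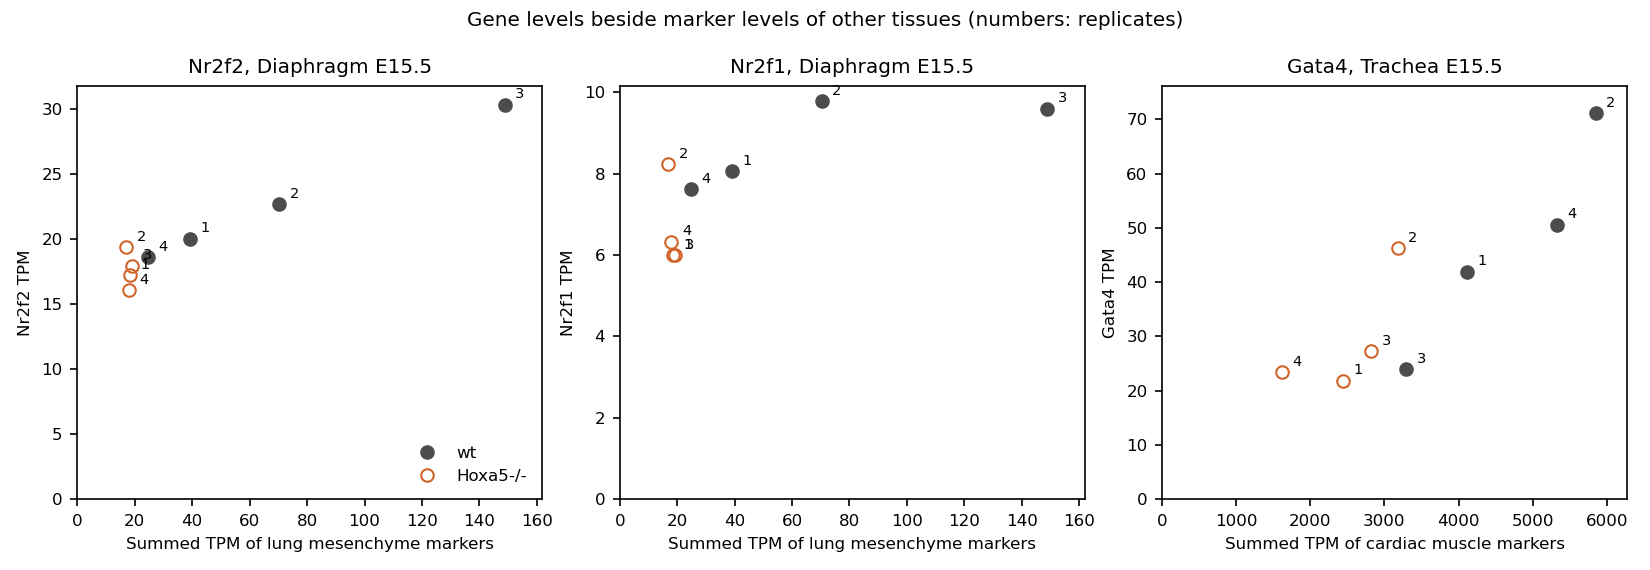
*Nr2f2* and *Nr2f1* in diaphragm against the summed TPM of 5 lung mesenchyme markers, and *Gata4* in trachea against the summed TPM of 8 cardiac muscle markers, all at E15.5. Each point is a library (filled for wt, open for *Hoxa5*-/-, with its replicate number), axes are linear and start at 0. The wt diaphragm sums reach 149 TPM and the mutant sums stay between 16.98 and 19.2 TPM, and the cardiac sums of the genotypes do not overlap.

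The ligand and receptor pair differed little between genotypes in diaphragm. *Met* gave 27.2, 29.8, 27.9 and 32.3 TPM in wt and 31.8, 29, 27.3 and 27.2 TPM in mutants, with a log2 fold change of −0.03 and a 95% interval of −0.20 to 0.14. *Hgf* gave 2.56, 4.27, 2.61 and 2.73 TPM in wt and 2.42, 3.19, 4.32 and 2.81 TPM in mutants. Its log2 fold change was 0.06 with an interval of −0.43 to 0.56, the widest of the 8 in this tissue. *Kif7* stood at 14.8, 17.96, 19.1 and 15.1 TPM in wt and at 15.6, 18.98, 16.1 and 14.6 TPM in mutants, for a log2 fold change of −0.04 and an interval of −0.25 to 0.16. In all 3 genes the groups overlapped over nearly their whole range.

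**Figure D2:**
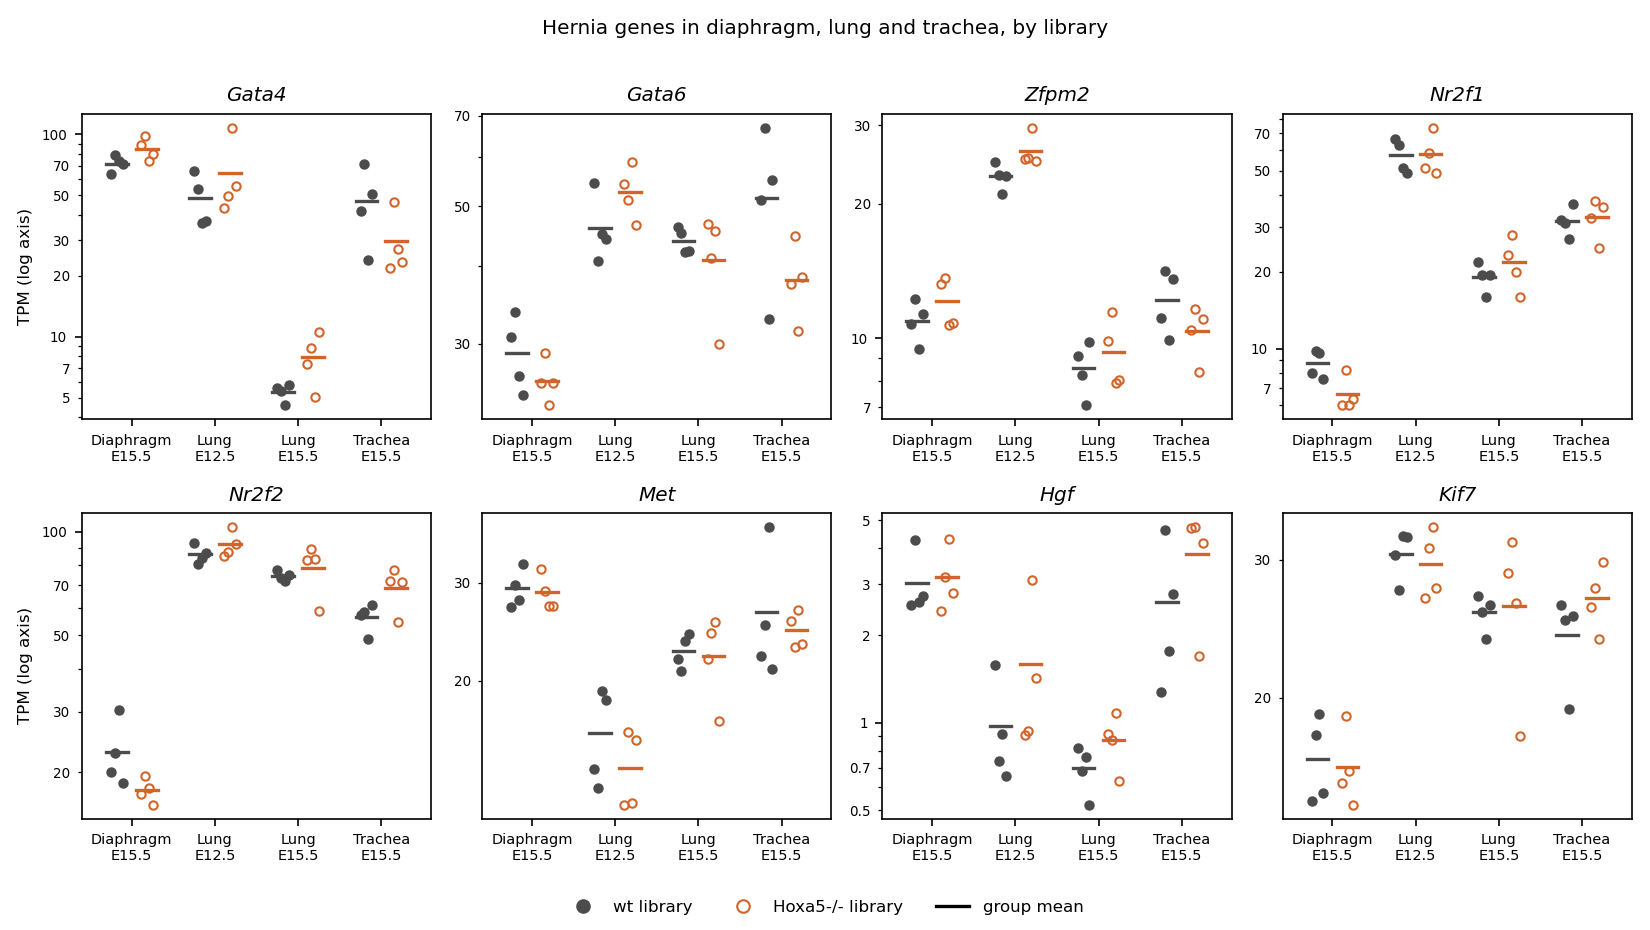
TPM of the 8 genes in diaphragm, lung and trachea on log axes that differ between panels. Each point is a library (filled for wt, open for *Hoxa5*-/-, 4 per group) and each line the group mean. *Gata4* lies at 4.59 to 10.6 TPM in lung at E15.5 and at 63.7 to 98.1 TPM in diaphragm, and wt and mutant libraries overlap in each panel except for *Zfpm2* in lung at E12.5.

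In lung at E12.5, *Nr2f2* (86.1 ± 5.23 TPM, SD, n = 4 wt) and *Nr2f1* (57.3 ± 8.57 TPM) led the 8 genes, with *Gata4* at 48.3 ± 14.2 and *Gata6* at 46.2 ± 5.84 TPM. None of the 8 was called by edgeR or by DESeq2 between genotypes, against 14 of 17548 genes (0.0798%) in the edgeR test, and *Zfpm2* was the 1 gene with an unadjusted p under 0.05. *Zfpm2* stood at 24.8, 23.3, 21.02 and 23.1 TPM in wt and at 25.2, 25.3, 29.6 and 24.96 TPM in mutants. Every mutant library lay above every wt library, by a narrow margin, as was so for 4.09% of all genes tested in this context in either direction. The log2 fold change of *Zfpm2* was 0.20 ± 0.08 (95% interval 0.02 to 0.38, adjusted p = 0.59).

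*Gata4* and *Hgf* had wider spreads in lung at E12.5. *Gata4* gave 65.9, 53.9, 36.3 and 37.3 TPM in wt and 43.1, 49.6, 108 and 55.8 TPM in mutants, and *Hgf* gave 1.58, 0.739, 0.916 and 0.654 TPM in wt and 0.911, 0.937, 3.11 and 1.42 TPM in mutants. Mutant replicate 3 was the highest library of this context for both, and also for *Gata6*, *Zfpm2*, *Nr2f1*, *Nr2f2* and *Kif7*, but not for *Met*. It was also the deepest library of the series. The log2 fold changes were 0.40 ± 0.28 for *Gata4* (adjusted p = 0.739) and 0.74 ± 0.41 for *Hgf* (adjusted p = 0.668). Without that library they were 0.04 for *Gata4* and 0.16 for *Hgf*, and 0.15 for *Zfpm2*. The erythroid markers reached 23404 TPM among the mutant libraries of this context and 4321 TPM among the wt libraries, and the part of such a difference in the values was not tested. *Barx1* stood at 26.4, 9.82, 5.27 and 4.35 TPM in wt and at 4.58, 9.53, 36.2 and 10.8 TPM in mutants, so that its highest library of each genotype was that of *Gata4* and the mutants had the same order by both genes. *Barx1* was not particular to stomach in these data, since it stood at 49.8 to 62.8 TPM in wt trachea at E15.5. The neuron and glia markers summed to 15.2 to 72.2 TPM in wt and 23.3 to 65.5 TPM in mutants. The part of neighbouring tissue in the *Gata4* and *Hgf* values was not tested. *Gata6*, *Nr2f1*, *Nr2f2*, *Met* and *Kif7* had log2 fold changes between −0.20 and 0.21.

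In lung at E15.5, *Nr2f2* remained the most abundant (74.5 ± 2.45 TPM, SD, n = 4 wt), *Gata6* stood at 44.0 ± 2.08 TPM and *Gata4* at 5.34 ± 0.53 TPM. *Hgf*, at 0.522 to 0.820 TPM in wt and 0.630 to 1.08 TPM in mutants, had a mean under 1 TPM in both genotypes and was not tested there. Of the other 7 genes none was called by edgeR or DESeq2, with 22 of 17777 genes (0.124%) called in the edgeR test, and 2 (*Gata4* and *Nr2f2*) had an unadjusted p under 0.05. *Gata4* gave 5.56, 5.39, 4.59 and 5.80 TPM in wt and 7.33, 8.83, 5.06 and 10.6 TPM in mutants. Mutant replicates 1, 2 and 4 exceeded every wt library and replicate 3 lay within the wt range. The log2 fold change was 0.74 ± 0.29 (95% interval 0.07 to 1.40, adjusted p = 0.737), and it was 0.38 without mutant replicate 4 and 0.94 without replicate 3. Mutant replicate 4 had the highest sum of cardiac muscle markers in this context (494 TPM, against 37.9 to 249 TPM in the others). The other libraries had another order by this sum than by *Gata4*. Wt replicate 3 (249 TPM) had the lowest *Gata4*, and mutant replicate 2 (37.9 TPM) had more *Gata4* than any library but mutant replicate 4. The part of cardiac tissue in the *Gata4* values was not tested. Mutant replicate 4 also had the fewest assigned reads of this context (20692978). The study's sequencing statistics give it the lowest shares of mapped and of assigned reads there.

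*Nr2f2* stood at 77.5, 73.5, 71.8 and 75.2 TPM in wt lung at E15.5 and at 82.9, 89.2, 83.4 and 58.7 TPM in mutants. Mutant replicates 1 to 3 exceeded all wt libraries, while replicate 4 lay under them on this scale. *Gata6*, *Met* and *Kif7* also had their lowest TPM of this context in mutant replicate 4. The lung mesenchyme markers summed to 528 TPM in that library, against 874 to 972 TPM in the others. In the counts as scaled for the test the log2 fold change of *Nr2f2* was 0.17 ± 0.05 (95% interval 0.07 to 0.27, edgeR adjusted p = 0.395), well within 1.5-fold. *Nr2f1* followed with 0.27 ± 0.12 (interval −0.0042 to 0.55, adjusted p = 0.804), and *Gata6*, *Met*, *Kif7* and *Zfpm2* lay between −0.02 and 0.23. The 4 lymphatic endothelium markers summed to 157 to 217 TPM in wt lung at this stage and to 72.9 to 104 TPM in mutants, with the hyaluronan receptor *Lyve1* called lower (−1.79, edgeR adjusted p = 0.0088). The 5 blood endothelium markers summed to 706 to 868 TPM in wt and 393 to 668 TPM in mutants. Neither sum overlapped between genotypes, and the part of these cells in the values of *Nr2f2* and the other genes was not tested. The median over the 7 genes was 0.17, beside −0.01 over all genes tested, and 6 of the 7 were above 0.

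In trachea at E15.5, none of the 8 genes was called by edgeR, which called 3 of 19220 genes (0.0156%), nor by DESeq2, and *Nr2f2* alone had an unadjusted p under 0.05. *Nr2f2* gave 57.3, 58.4, 49.0 and 61.4 TPM in wt and 71.8, 77.5, 54.5 and 71.3 TPM in mutants. Mutant replicates 1, 2 and 4 lay above every wt library and replicate 3 below 3 of them. Its log2 fold change was 0.27 ± 0.11 (95% interval 0.02 to 0.53, adjusted p = 0.736).

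The GATA pair had its lowest trachea values among the mutants, with wide spreads. *Gata4* gave 41.9, 71.2, 24.01 and 50.6 TPM in wt and 21.8, 46.2, 27.2 and 23.4 TPM in mutants, a log2 fold change of −0.67 ± 0.35 (adjusted p = 0.764) that became −0.39 without wt replicate 2 and −0.97 without mutant replicate 2. *Gata6* gave 51.1, 66.95, 32.9 and 55.2 TPM in wt and 37.4, 44.8, 31.5 and 38.4 TPM in mutants, a log2 fold change of −0.45 ± 0.20 (adjusted p = 0.745). Wt replicate 2 was the highest library for both and wt replicate 3 the lowest wt library. Cardiac muscle expresses both factors, and its 8 markers summed to 4118, 5854, 3295 and 5332 TPM in wt trachea and to 2447, 3181, 2825 and 1617 TPM in mutants, with no overlap. The mesothelial genes *Wt1* and *Upk3b* were at 21.3 and 95.4 TPM in wt replicate 2 and at most at 6.25 and 31.1 TPM in the other trachea libraries. The whole mesothelium set, these genes included, had another order. It summed to 971, 1095, 1868 and 631 TPM in wt and to 945, 559, 1442 and 603 TPM in mutants. Its highest library was thus wt replicate 3, the wt library with the lowest *Gata4* and *Gata6*. Most of each trachea sum came from the other genes of the set, so its order need not be that of *Wt1* and *Upk3b*. Whether those other genes mark mesothelium in trachea was not tested. The part of either tissue in the *Gata4* and *Gata6* values was not tested.

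*Met* in trachea was 22.2, 25.2, 37.8 and 20.99 TPM in wt and 25.6, 23.01, 26.8 and 23.3 TPM in mutants. Wt replicate 3, the highest, was also the wt library with the most *Sftpc* (288 TPM). *Hgf* gave 1.28, 4.62, 1.77 and 2.78 TPM in wt and 4.71, 4.73, 1.70 and 4.17 TPM in mutants, with a log2 fold change of 0.53 ± 0.45 (adjusted p = 0.807), 0.97 without wt replicate 2 and 0.30 without wt replicate 1. *Zfpm2*, *Nr2f1*, *Met* and *Kif7* lay between −0.24 and 0.15.

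**Figure D3:**
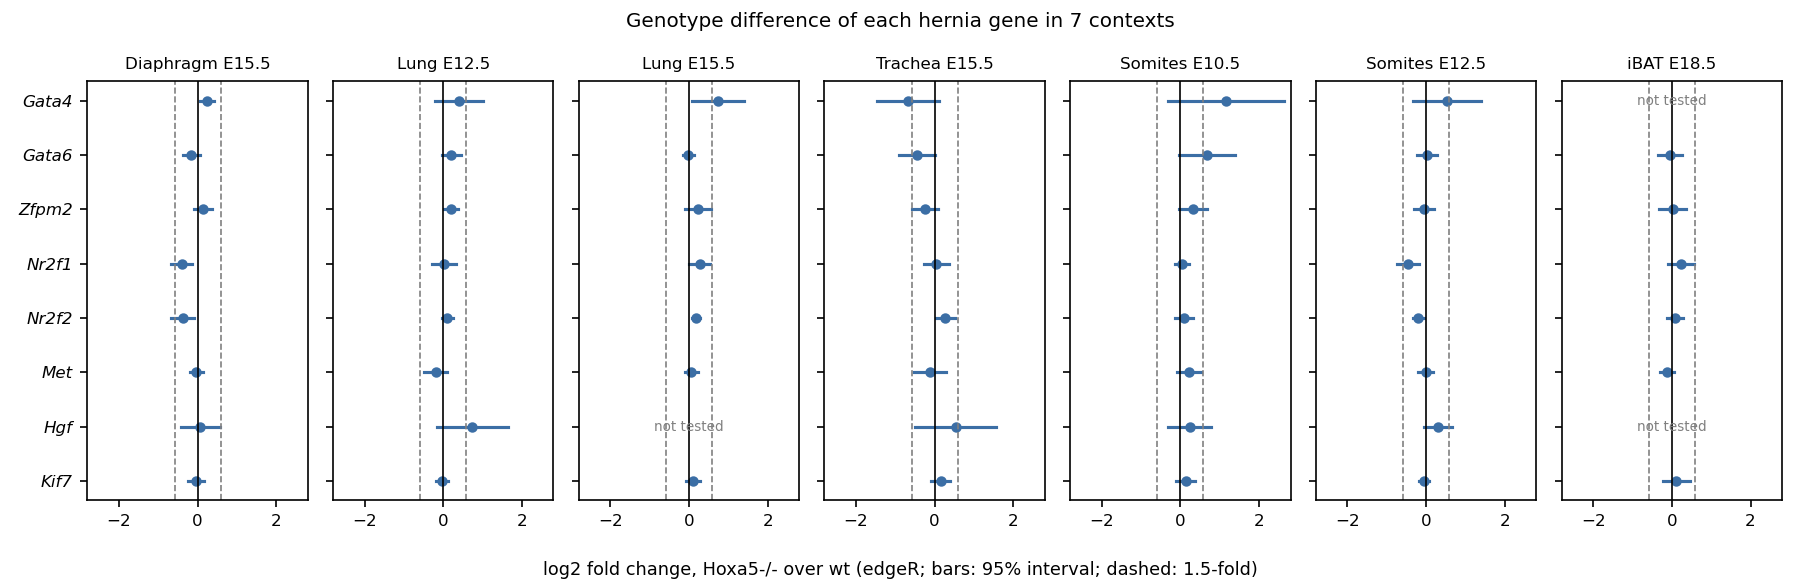
Log2 fold change (*Hoxa5*-/- over wt) of the 8 genes in the 7 contexts from edgeR. Points are estimates, bars 95% intervals, dashed lines mark 1.5-fold, and genes with a mean under 1 TPM in both genotypes are marked as not tested. No gene was called in any context, and the widest interval is that of *Gata4* in somites at E10.5 (−0.31 to 2.62).

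In somites at E10.5 the order of the genes was another: *Nr2f1* led with 163 ± 14.5 TPM (SD, n = 4 wt), ahead of *Nr2f2* (62.3 ± 10.3 TPM) and *Kif7* (22.8 ± 3.66 TPM), while *Gata4*, *Gata6*, *Zfpm2* and *Hgf* lay at 0.113 to 3.48 TPM. None of the 8 genes was called by edgeR or DESeq2, with 4 of 18573 genes (0.0215%) called in the edgeR test, and none had an unadjusted p under 0.05. All 8 log2 fold changes were above 0, with a median of 0.24 beside −0.01 over all genes. *Gata4* gave 1.71, 3.48, 2.06 and 0.113 TPM in wt and 4.66, 6.95 and 1.43 TPM in mutants. These rest on 3 to 202 counts per library. Its log2 fold change was 1.16 ± 0.66 (adjusted p = 0.426), and with 1 library left out between 0.63 (mutant replicate 2) and 1.68 (wt replicate 2). *Gata6* gave 0.67 ± 0.32 (adjusted p = 0.394) and *Zfpm2* 0.31 ± 0.16 (adjusted p = 0.4), and the other genes lay between 0.04 and 0.24. The cardiac muscle markers summed to 24.3 to 36.1 TPM in wt and 32.7 to 41.9 TPM in mutants, with *Nkx2-5*, *Myl2* and *Nppa* under 1 TPM in both. The 6 mesothelium markers summed to 14.02 to 32.7 TPM in wt (median 20.1) and 30.5 to 35.002 TPM in mutants (median 34.1), with *Wt1* at 6.79 to 12.3 TPM in wt and 10.8 to 16.3 TPM in mutants. *Upk3b* gave 2.24, 7.23, 4.36 and 0.836 TPM in wt, the same order of libraries as *Gata4*, and 5.70 to 6.81 TPM in mutants. The blood endothelium sum was 133 to 165 TPM in wt and 167 to 188 TPM in mutants, without overlap. The part of these cells in the values of the 8 genes was not tested.

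In somites at E12.5 *Nr2f1* was the gene whose genotypes did not overlap. It stood at 51.3, 39.9, 37.5 and 38.5 TPM in wt and at 29.5, 32.1, 35.8 and 23.8 TPM in mutants. All mutant libraries lay under all wt libraries, which was so in either direction for 2.51% of the genes tested. The log2 fold change was −0.46 ± 0.12 (95% interval −0.73 to −0.18), and the adjusted p over all genes was 0.999. *Nr2f2* gave 43.2, 35.6, 38.8 and 37.5 TPM in wt and 30.9, 34.1, 36.2 and 33.5 TPM in mutants, with mutant replicate 3 inside the wt range and a log2 fold change of −0.20 ± 0.06 (interval −0.33 to −0.06, adjusted p = 0.999). *Barx1* stood at 85.3, 42.5, 24.5 and 25.2 TPM in wt and at 16.3, 15.49, 28.4 and 14.2 TPM in mutants. The wt libraries had the same order by *Barx1* and *Nr2f1*, and mutant replicates 3 and 4 were the highest and the lowest mutants for both. The other 5 stomach and gut markers had means under 1 TPM, and the part of tissue with *Barx1* transcripts in the *Nr2f1* values was not tested. *Nr2f1* and *Nr2f2* were the 2 genes with an unadjusted p under 0.05. None of the 8 was called by edgeR or DESeq2, and edgeR called 1 of 18906 genes (0.00529%). *Gata4* (0.53 ± 0.39), *Hgf* (0.31 ± 0.16) and *Gata6* (0.03 ± 0.11) had estimates above 0 and *Zfpm2*, *Met* and *Kif7* had estimates between −0.06 and −0.01.

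In iBAT at E18.5, *Met* was the most abundant of the genes, with a lowest, median and highest wt value of 13.9, 15.3 and 16.1 TPM and mutant values of 11.9, 13.8 and 15.51 TPM. The genotypes overlapped, but 3 of the 5 mutant libraries lay under every wt library. *Gata4* had 0 counts in 9 of the 10 libraries and 1 count in the other, where a count of 0 allows up to 0.133 to 0.163 CPM (counts scaled to library size) by library (3 counts, counting error only). *Gata4* and *Hgf* (0.105 to 0.399 TPM) were not tested. None of the other 6 genes was called by edgeR or DESeq2, edgeR called 1 of 15212 genes (0.00657%), and none of the 6 had an unadjusted p under 0.05. Their log2 fold changes lay between −0.11 (*Met*) and 0.23 (*Nr2f1*), and all 6 intervals lay within 1.5-fold.

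Over the 7 contexts the TPM ranges of the genotypes failed to overlap only for *Zfpm2* in lung at E12.5 and *Nr2f1* in somites at E12.5. In the contexts with none of the 8 genes, the share of all tested genes without overlap was 6.87% in diaphragm, 2.96% in lung at E15.5, 3.74% in trachea, 7.37% in somites at E10.5 and 0.316% in iBAT.

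**Figure D4:**
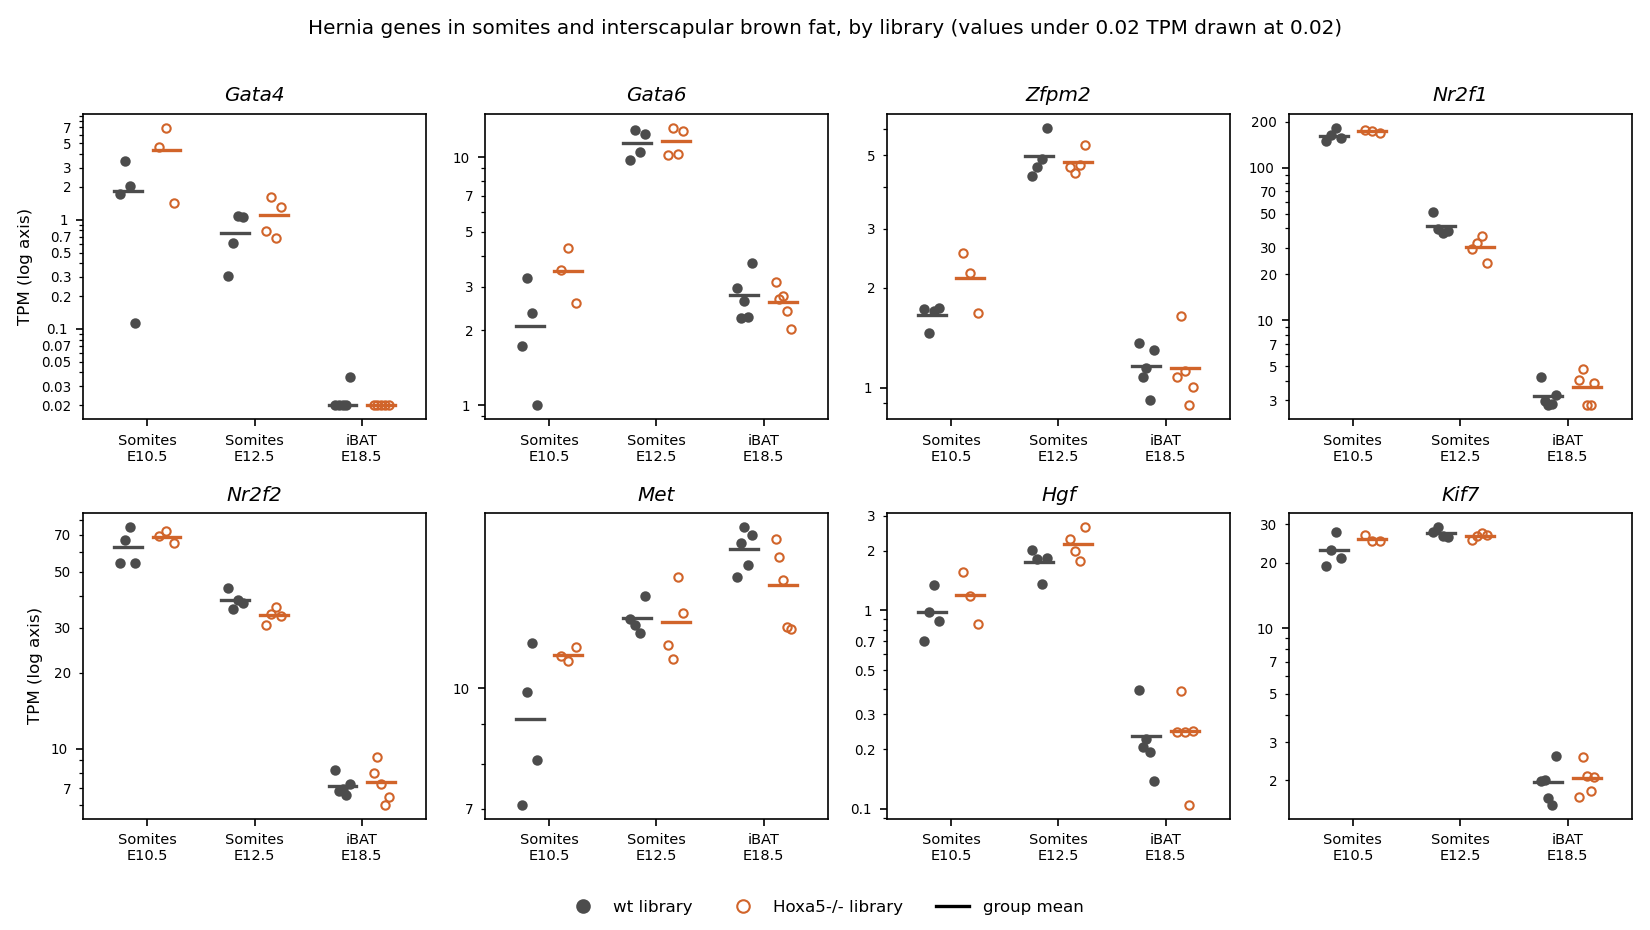
TPM of the 8 genes in somites and iBAT on log axes that differ between panels, with values under 0.02 TPM drawn at 0.02. Points are libraries (filled for wt, open for *Hoxa5*-/-, 3 to 5 per group) and lines group means. *Nr2f1* falls from 149 to 183 TPM in wt somites at E10.5 to 37.5 to 51.3 TPM at E12.5, where the mutant libraries lie at 23.8 to 35.8 TPM.

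Whether the genotype difference itself varied between contexts was tested by the interaction in edgeR. The diaphragm libraries enter both tests within the E15.5 tissues, so those tests are not independent of each other. Between diaphragm and lung at E15.5, where 0.73% of 19463 genes were called at an adjusted p under 0.05, none of the 8 genes was called. *Nr2f2* and *Nr2f1* had an unadjusted p under 0.05, and their differences of log2 fold changes (diaphragm minus lung) were −0.55 ± 0.14 (adjusted p = 0.0983) and −0.68 ± 0.17 (adjusted p = 0.108). DESeq2, which called 1.61% of all genes in this comparison, called both (adjusted p = 0.00723 for *Nr2f2* and 0.0167 for *Nr2f1*). The edgeR fit called *Nr2f2* without diaphragm wt replicate 3 (−0.40, adjusted p = 0.0206) and without wt replicate 4 (−0.63, adjusted p = 0.0204), so the call turned on the tool and on single libraries. With the replicate number as a block edgeR also called both, with adjusted p of 0.0312 for *Nr2f2* and 0.0208 for *Nr2f1*, but these numbers are not known to pair the embryos.

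Between diaphragm and trachea 0.439% of 20289 genes and none of the 8 were called by edgeR, with 4 of them at an unadjusted p under 0.05. *Nr2f2* gave −0.63 ± 0.17 (adjusted p = 0.153, and 0.0216 in DESeq2, which called this 1 of the 8 and 1.86% of all genes) and *Gata4* 0.93 ± 0.37 (adjusted p = 0.457). The *Gata4* value sets a diaphragm difference of 0.24 beside a trachea difference of −0.67. Between lung at E15.5 and E12.5 none of the 8 was called by either tool, with 0.0267% of 18733 genes called by edgeR, and none had an unadjusted p under 0.05. Between somites at E12.5 and E10.5 0.0147% of 20419 genes were called, and none of the 8 by either tool, with 2 at an unadjusted p under 0.05. *Nr2f1* gave −0.50 ± 0.15 there (adjusted p = 0.327), and 0.0403 without E10.5 wt replicate 3.

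Between wt diaphragm and wt lung at E15.5 edgeR called 6 of the 8 genes, against 36.4% of 18984 genes. *Gata4* was higher in diaphragm by 4.05 ± 0.08 on the log2 scale (16.6-fold, adjusted p = 4.03e-09), *Hgf* by 2.42 ± 0.21, *Met* by 0.68 ± 0.08 and *Zfpm2* by 0.66 ± 0.12. *Nr2f2* was lower in diaphragm (−1.40 ± 0.12), and so was *Nr2f1* (−0.83 ± 0.11). *Gata6* (−0.30) and *Kif7* (−0.32) passed the test at less than 1.5-fold. With library totals in place of TMM factors, a scaling added after the data were seen, *Met* (0.44) and *Zfpm2* (0.42) were under 1.5-fold, and *Zfpm2* (0.58) was so too without lung wt replicate 3. Under library totals the median of all genes moved from −0.01 to −0.25.

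Between wt diaphragm and wt trachea 3 of the 8 genes were called, against 32.5% of 19730 genes. *Nr2f1* (−1.56 ± 0.11) and *Nr2f2* (−1.01 ± 0.13) were lower in diaphragm and *Gata4* higher (0.91 ± 0.27, adjusted p = 0.0197). The *Gata4* call was lost without trachea wt replicate 1 (0.86, adjusted p = 0.0501) and with library totals (0.68, adjusted p = 0.0552), under which *Gata6* was called (−0.76). Without trachea wt replicate 3 the count rose to 5, with *Met* (0.66) and *Gata6* (−0.70), and without wt replicate 2 *Hgf* was called (0.94). Between wt trachea and wt lung at E15.5, 3 of 8 genes were called against 30.2% of 19340 genes: *Gata4* (3.10 ± 0.30), *Hgf* (1.87 ± 0.39) and *Nr2f1* (0.69 ± 0.12) were higher in trachea. The cardiac muscle and mesothelial RNA of the trachea libraries given above stands beside its *Gata4* values.

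Across lung stages in wt, 3 of the 7 genes tested were called, all lower at E15.5, against 24.6% of 18158 genes. *Gata4* fell by 3.22 on the log2 scale (SE 0.21), *Nr2f1* by 1.62 (SE 0.13) and *Zfpm2* by 1.46 (SE 0.10). *Gata6*, at 46.2 and 44.0 TPM, gave −0.10 ± 0.08 (interval −0.29 to 0.08). The log2 ratio of *Gata6* to *Gata4* per library was thereby 3.05 ± 0.14 (SD, n = 4) at the later stage, against −0.03 ± 0.36 at E12.5.

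Between wt somites at E10.5 and E12.5, 5 of the 8 genes were called against 42.6% of 19773 genes. *Gata6* (2.37 ± 0.26), *Zfpm2* (1.52 ± 0.14) and *Hgf* (0.79 ± 0.20) were higher at E12.5, and *Nr2f1* (−2.03 ± 0.09) and *Nr2f2* (−0.75 ± 0.10) lower. *Gata4* (−1.36 ± 0.61, adjusted p = 0.0651) was called without E10.5 wt replicate 4 (−1.74, adjusted p = 0.00181). *Nr2f1* exceeded *Nr2f2* in all 7 libraries at E10.5, wt and mutant, while at E12.5 *Nr2f2* exceeded *Nr2f1* in 1 of 4 wt and 4 of 4 mutant libraries. Between wt iBAT at E18.5 and wt somites at E12.5 all 7 genes tested were called, as were 66.3% of 19369 genes. *Met* was higher in iBAT (1.51 ± 0.08) and the other 6 lower, from *Kif7* (−2.61 ± 0.11) and *Nr2f1* (−2.49 ± 0.12) to *Gata6* (−0.84 ± 0.13). Library totals kept these directions but moved the values, with *Met* at 0.86 and *Kif7* at −3.25 and the median of all genes from −0.16 to −0.80.

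**Figure D5:**
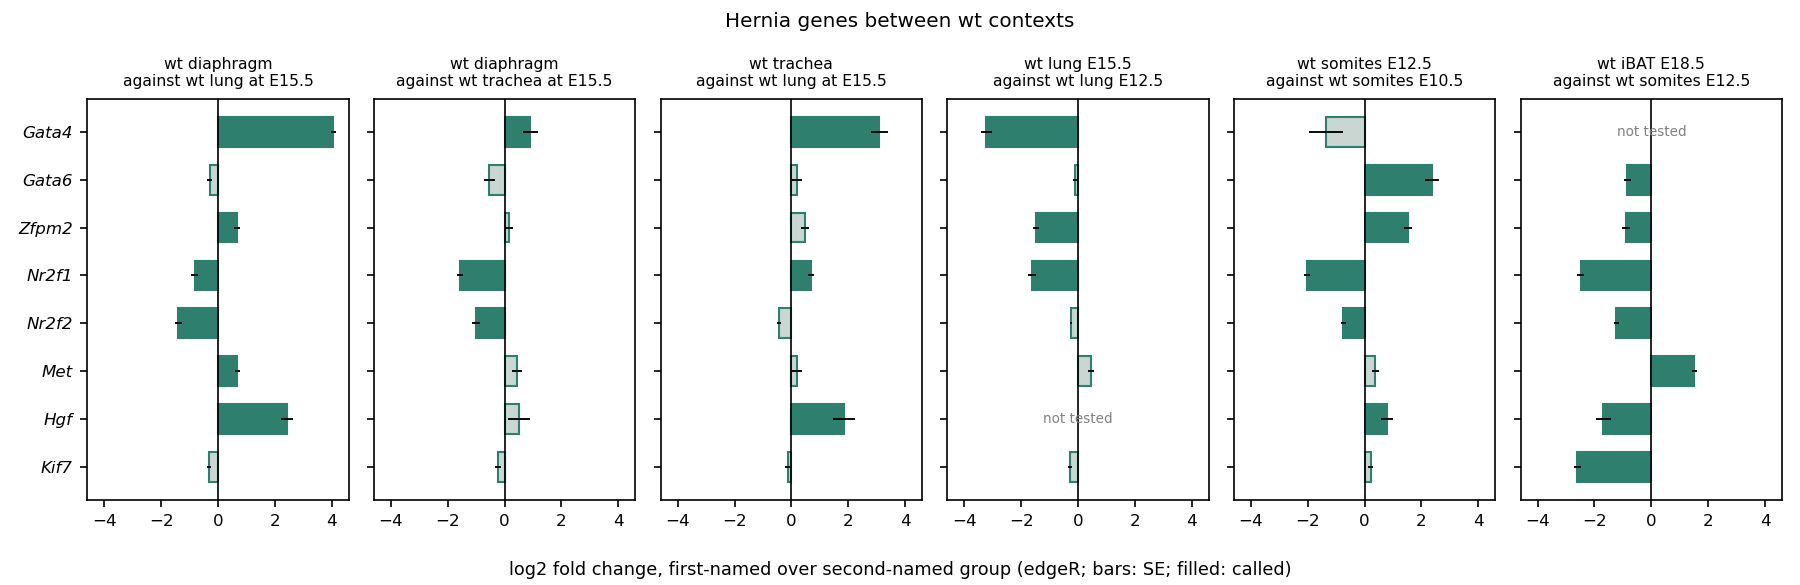
Log2 fold change of the 8 genes between wt contexts from edgeR, first-named over second-named group. Bars are estimates with their SE, dark bars were called (adjusted p under 0.05 and at least 1.5-fold) and pale bars were not. *Gata4* reaches 4.05 in diaphragm over lung, and *Nr2f1* is lower in diaphragm than in lung or trachea.

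*Met* exceeded *Hgf* in every library of every context, with mean log2 ratios between 2.49 and 6.05. *Nr2f2* exceeded *Nr2f1* in every diaphragm, lung, trachea and iBAT library, with mean log2 ratios of 1.37 ± 0.20 in wt and 1.42 ± 0.16 in mutant diaphragm (SD, n = 4 each).

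Other genes of these pathways were read from lists drawn up with earlier results of these data known. Of 37 other genes tied to diaphragmatic hernia, 0 were called higher and 2 lower in *Hoxa5*-/- diaphragm, against 0.594% of all genes in either direction, with a median log2 fold change of −0.07. An unadjusted p under 0.05 was found for 9 of the 37, and for 13% of all genes. The 2 called lower were *Tcf21* and *Slit3*. *Tcf21*, a mesenchymal factor also among the lung mesenchyme markers, was at 18.9 ± 13.1 TPM in wt and 1.59 ± 0.337 in mutants (log2 fold change −3.55 ± 0.56, edgeR adjusted p = 0.0314). *Slit3*, a guidance ligand, was at 22.001 ± 5.85 and 11.2 ± 0.530 TPM (−0.97 ± 0.16, edgeR adjusted p = 0.0412). In wt lung at E15.5 *Tcf21* stood at 189 to 340 TPM. The part of neighbouring tissue in the diaphragm values of *Tcf21* and *Slit3* was not tested. *Tcf21* was also among the fixed partners of the 8 genes, and the other fixed partners were not called in diaphragm. The mesothelial factor *Wt1* gave 0.11 ± 0.13 and the hedgehog factors *Gli2* and *Gli3* −0.07 ± 0.07 and 0.10 ± 0.10. *Lbx1* and *Pax3*, factors of migrating muscle precursors, gave −0.05 ± 0.10 and 0.12 ± 0.14. In the other 6 contexts edgeR called none of the list, and DESeq2 called 1, the elastin gene *Eln*, lower in trachea, where it called 0.271% of all genes. At an unadjusted p under 0.05 edgeR had 12 of the 33 genes tested in lung at E15.5 (6.32% of all genes), 7 of 37 in somites at E10.5 (12.7%), and 6 of 35 in trachea (6.70%). It had 2 of 36 in somites at E12.5 (3.24%), 2 of 35 in E12.5 lung (8.01%) and 0 of 25 in iBAT (2.47%).

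Of the 20 genes of HGF activation, MET signalling and migrating muscle precursors, the 20 of the hedgehog pathway and the 11 relatives of the COUP-TFs with retinoid receptors, edgeR called none between genotypes in any context, and none of the 11 GATA relatives and partners. In diaphragm 5 of 20, 8 of 20, 3 of 11 and 4 of the 8 tested genes of these lists, in that order, had an unadjusted p under 0.05, against 13% of all genes. DESeq2, which called 2.25% of all genes there, called 2 of the first list lower (*Spint1*, an inhibitor of HGF-activating proteases, and *St14*, such a protease) and 4 of the second. The lung epithelium markers summed to 11.7 to 520 TPM in wt diaphragm, highest in wt replicate 3, and to 10.8 to 33.3 TPM in mutants. The part of neighbouring tissue in these calls was not tested.

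Over the 32 diaphragm, lung and trachea libraries, the genes whose log2(TPM + 1) was most like that of *Nr2f2* were *Tbx5* (Pearson r = 0.988) and *Wnt7b* (r = 0.986), and *Meis1* (r = 0.975) was among those most like *Nr2f1*. For *Gata4* they were *St8sia1* (r = 0.962) and *Plat* (r = 0.960), for *Gata6* *Unc5b* (r = 0.926) and *Cd1d1* (r = 0.891), and *Lrfn5* (r = 0.944) was among those most like *Zfpm2*. For *Met* they were *Pmp22* (r = 0.922) and *Myadm* (r = 0.920), for *Hgf* *Xkr4* (r = 0.893) and *Eya4* (r = 0.882), and for *Kif7* *Dlg5* (r = 0.977) and *Mdfi* (r = 0.976). Among the 8 genes, *Nr2f2* and *Kif7* were most alike (r = 0.931), then *Nr2f1* and *Kif7* (r = 0.891) and *Nr2f1* and *Nr2f2* (r = 0.887), while *Gata4* and *Gata6* gave r = −0.20. The libraries form 4 contexts, so these values, taken over 15391 genes, mostly describe which tissue is high.

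The positions of the genes, from the files' GRCm39 annotation, show where counts could be shared. *Kif7* lies on chromosome 7 from 79347846 to 79365468 and shares 877 exon bases (19.1% of its exon length) with *9330171B17Rik* on the opposite strand, a gene at no more than 1.05 TPM in any library. It also shares 51 exon bases (1.11%) with *Ticrr*, likewise on the opposite strand and at up to 36.1 TPM. *Nr2f2*, on chromosome 7 from 70001692 to 70016483, shares 643 (7.46%) with *B130024G19Rik*, and *Nr2f1*, on chromosome 13 from 78337092 to 78347876, shares 123 (2.42%) with *A830082K12Rik*, both on opposite strands. *Hgf*, on chromosome 5 from 16758493 to 16825150, shares 484 (6.74%) with *Gm43489* on its own strand. *Gata4* (chromosome 14, 63436371 to 63509141) and *Met* (chromosome 6, 17463799 to 17573979) share none, and *Gata6* shares 368 (5.65%) with *Gata6os*. Whether counting used strand is not given in the sources used here, so reads of such stretches cannot be told apart between partners.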

How the data were processed

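RNA was sequenced from poly(A) libraries of 57 tissue samples. Per the labels and the study's methods, the authors trimmed reads with Trim Galore (version 0.6.5), mapped them to GRCm39 with STAR (version 2.7.9a) and counted them per gene with featureCounts (version 2.0.3). The deposited tables hold raw counts and TPM, with diaphragm, lung and trachea in 1 pair and somites and iBAT, sequenced at another centre, in the other. Levels were compared within a pair only.

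Counts were tested with edgeR (version 4.0.16, quasi-likelihood, TMM factors) in R 4.3.3 over all genes with a mean of at least 1 TPM in either group. Genes were called when the Benjamini-Hochberg adjusted p was below 0.05 with a change of 1.5-fold or more, and interactions at the adjusted p alone. DESeq2 (version 1.42.0), as the study used, was an alternative, beside other factors, filters, blocks, a fit over each table and fits without 1 library. The scripts were tested on simulated counts.

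The 8 genes, and the lists, were chosen with earlier results of these data known. Genes named beside them are list genes called between genotypes, fixed partners, and the 2 protein-coding genes most like each. Some genes that this rule named are not reported here. Libraries of a group are separate samples, but their litters are not given, so p-values measure the spread between these samples. Replicate numbers paired samples (each correlation of deviations over 0.1) for iBAT genotypes (0.134 to 0.438, where sample names of both genotypes also share leading numbers, 1 of them held by replicates 4 and 5) and wt trachea with lung (0.216 to 0.545).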

Additional observations from a re-analysis of the deposited data

Results flagged for a closer look

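In 102 groups of 4 or 5 libraries, 1 for each gene, context and genotype, the highest or lowest library stood apart from its neighbour by more than Dixon's 95% limit in 5, and chance gives about 1 in 20. *Zfpm2* was highest in lung E12.5 *Hoxa5*-/- replicate 3 (gap 0.918 of the range), which is also the deepest library. *Zfpm2* was lowest in somites E10.5 wt replicate 2 (0.867). *Nr2f1* was highest in diaphragm *Hoxa5*-/- replicate 2 (0.851), the library that crossed the wt range. *Hgf* was highest in diaphragm wt replicate 2 (0.896). *Kif7* was lowest in trachea wt replicate 3 (0.836), the library with *Sftpc* at 288 TPM.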

How the results depend on the processing

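Of 2186 values of the 8 genes recomputed under other settings, 29 changed their call, 42 that were never called changed sign and 0 called values were reversed. The count of genes called between genotypes stayed at 0 in every context and setting, except 1 in somites at E10.5 with no filter (*Gata4*, 1.15, adjusted p = 0.00733). Without the fold minimum the counts were 5 for wt trachea against lung and 6 for lung at E15.5 against E12.5. Leaving it out also added *Kif7* and *Gata6* in wt diaphragm against lung, *Gata6* in wt diaphragm against trachea and *Met* in wt somites between stages. For the genotype effect in diaphragm against lung DESeq2 called 2 genes, and in diaphragm against trachea 1. With 1 library left out, the counts ran from 5 to 6 for wt diaphragm against lung, 2 to 5 for wt diaphragm against trachea, 5 to 6 for wt somites between stages, 0 to 1 for the genotype effect in diaphragm against lung and 0 to 1 for that in somites. The causes were not tested. With library totals the split of called genes, higher and lower, moved from 3959 and 2956 to 3190 and 4690 in wt diaphragm against lung, from 2791 and 3621 to 2074 and 5026 against trachea, and from 6002 and 6839 to 4102 and 10160 in iBAT against somites.

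A replicate block changed the count of called genes in 1 comparison, the genotype effect in diaphragm against lung, where it called 2 (*Nr2f2* and *Nr2f1*); same-numbered samples there were not shown to be paired. In the comparisons whose numbers paired samples the block changed no call. In iBAT the leading number of the sample names, used as a block, left the count at 0 of 6. Outside diaphragm the 95% intervals of *Gata4* and *Hgf* reached past 1.5-fold in every context where they were tested, so that differences of that size lie inside them.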
